A study of Mus musculus with 8 samples.

Results

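The genes described here carry the insulin signal in fat and the glucose uptake that it controls: Insr, Irs1, Irs2, Grb14, Pik3r1, Akt1, Akt2, Trib3, Foxo1 and Slc2a4. These 10 genes were taken by symbol from the count tables, which list 23212 symbols, and all 10 were among the 14493 genes with enough counts to be tested. RNA was taken from entire perigonadal fat pads of 8 C57BL/6 mice, 4 with an adipocyte-specific knockout of 1 gene and 4 wild type. Every mouse was 20 weeks old and had eaten a diet with 45% fat for 12 weeks, starting at 8 weeks of age. All values therefore describe fat of mice on this diet, with no group on another diet. The driver that confines the knockout to adipocytes is not given in the sources used here, and other cells of the tissue keep the gene by the design that the label names. In whole tissue, fewer adipocytes and less of a transcript per adipocyte cannot be told apart.

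Insulin binds the insulin receptor, a tyrosine kinase that phosphorylates insulin receptor substrate proteins. These recruit phosphoinositide 3-kinase, whose lipid product brings the AKT kinases to the membrane. In adipocytes, active AKT releases vesicles that hold the glucose transporter GLUT4, so that glucose enters the cell, and it keeps FOXO transcription factors out of the nucleus. Much of this control acts on proteins and their phosphorylation, which transcript counts do not measure.

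The libraries held 46444435 to 51431956 counts. Knockout library 2 and wild-type library 3 stood apart by transcripts of ciliated epithelium: the ciliary transcription factor gene Foxj1 measured 26.1 and 7.97 CPM there and 0.287 CPM or less in the other 6. Epcam, Cuzd1 and Cdh1 of the same marker list were also highest in these libraries. Krt8 of that list was not, at 11.5 CPM in wild-type library 3 and 29.5 CPM in wild-type library 2. CPM relate a gene's counts to the library total, with totals scaled by the trimmed mean of M-values (TMM). Where 4 values of a genotype stand together, they are libraries 1 to 4 in this order. The 8 adipocyte markers summed to 42643 to 57971 CPM in knockout and 40431 to 55403 CPM in wild type. Fabp4 had the highest mean of them, 17271 CPM in knockout and 17057 CPM in wild type. Adipoq averaged 5110 CPM in knockout and 5243 CPM in wild type. The 9 macrophage markers summed to 558 to 2378 CPM in knockout and 416 to 1315 CPM in wild type, with all 9 log2 fold changes above 0 and none past the adjusted threshold. The 5 smooth muscle markers summed to 212 to 267 CPM in knockout and 274 to 741 CPM in wild type, with all 5 below 0 and none past it. The part of these cell types in the values given here was not tested. Of 8 skeletal muscle markers, a tissue that also expresses Slc2a4, 7 averaged under 1 CPM, and the muscle creatine kinase gene Ckm was at 0 to 0.103 CPM. The remaining marker, the skeletal muscle actin gene Acta1, was at 10.8 to 42.8 CPM in knockout and 30.6 to 78.9 CPM in wild type (log2 fold change -1.07, SE 0.47, unadjusted p = 0.0493, adjusted p = 0.9999, edgeR), and its part in the Slc2a4 values was not tested.

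None of the 10 genes passed an adjusted p of 0.05 between knockout and wild type in edgeR's quasi-likelihood test (adjusted p = 0.9999 for each), and none passed in DESeq2. Over all tested genes 2, or 0.0138%, passed. At an unadjusted p under 0.05 there was 1 of the 10 genes, Irs1, against 2.23% of all tested genes. In none of the 10 genes did the knockout and wild-type libraries separate without overlap, which 1.44% of all tested genes did. The 10 log2 fold changes had a median of 0.04, and that of all tested genes was 0.01. They ran between -0.13 for Irs2 and 0.44 for Irs1, with 6 above 0 and 4 below.

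**Figure D1:**
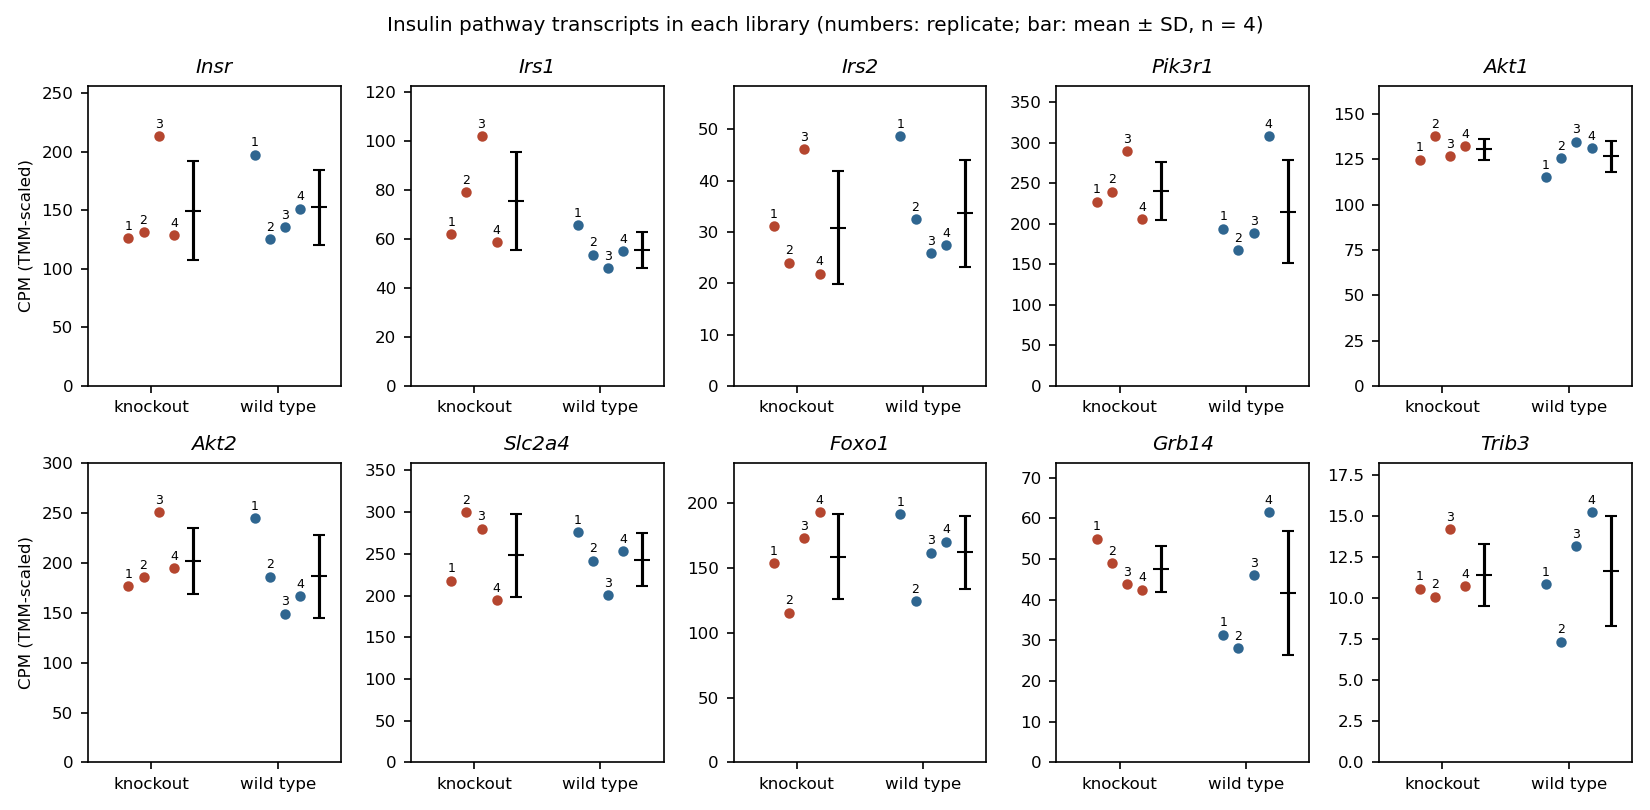
CPM of the 10 insulin pathway genes (vertical axis from 0, TMM-scaled) in the 4 knockout and 4 wild-type libraries; each point is 1 library with its replicate number, and bars give mean ± SD. The groups overlap in every panel, with knockout library 3 and wild-type library 1 on top of their groups for Insr, Irs2 and Akt2.

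The gene closest to a difference was Irs1, which encodes a substrate that links the receptor to phosphoinositide 3-kinase in adipocytes. Its sequence upstream of the start site is shown beside that of its relative Irs2, because their promoters share a pair of elements. Both sequences are the 250 bases before the RefSeq start site, read 5′ to 3′ on the minus strand of GRCm38.p6, chr1:82291440-82291689 for Irs1 and chr8:11008930-11009179 for Irs2. Capitals mark the E-box CACGTG and the core of an insulin response element, CAAAACA or TGTTTTG on the other strand.
Irs1: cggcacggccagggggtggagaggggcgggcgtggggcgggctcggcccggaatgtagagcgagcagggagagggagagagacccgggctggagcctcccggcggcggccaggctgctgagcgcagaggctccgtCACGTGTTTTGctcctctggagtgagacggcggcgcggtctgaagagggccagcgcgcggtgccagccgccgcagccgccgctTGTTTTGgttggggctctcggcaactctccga
Irs2: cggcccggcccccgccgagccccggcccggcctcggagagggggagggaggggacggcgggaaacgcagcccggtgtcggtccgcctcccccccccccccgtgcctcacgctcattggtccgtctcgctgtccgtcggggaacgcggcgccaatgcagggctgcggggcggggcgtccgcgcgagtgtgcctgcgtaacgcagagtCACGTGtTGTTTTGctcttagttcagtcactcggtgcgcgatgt
In Irs1 the E-box begins 115 bases before the start site and overlaps the TGTTTTG that begins at 111. A second TGTTTTG of Irs1 begins 32 bases before the start site. In Irs2 the E-box begins 44 bases before the start site and TGTTTTG follows it at 37. Within the 250 upstream bases, 6.02% of 32851 RefSeq promoter windows held the E-box, 5.56% held the insulin response element core and 0.295% held both. The RefSeq start site of Irs2 is upstream of the deposited gene model. The motifs shown here and for Trib3 were kept because they matched. Besides pathway genes, the 17 genes searched held Pck2, which was chosen by its likeness to Trib3 across the libraries, as given below. In all 13 letter strings were searched on both strands for these genes, of which 15 had a window. They were the E-box and CAAAACA, the composite TGATGNAA with its narrower form TGATGCAA and that form's reverse TTGCATCA, the single strings ATTTCAT and also GGGGTCA, the FOXO motif GTAAACA with its inner part GTTTAC as read on the other strand, the short strings AAACA as well as GGAA, and the sterol element TCACNCCAC with its narrower form TCACCCCAC. A match describes letters and is no evidence of binding.

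The insulin receptor gene Insr (chromosome 8, 3150922 to 3279617, minus strand, mm10) had 126, 131, 213 and 128 CPM in the knockouts, against 197, 125, 135 and 151 CPM in the wild types. Knockout library 3 and wild-type library 1 were high, and the remaining 6 libraries of both genotypes lay close together. The mean was 149.7 ± 42.5 CPM in knockout and 152 ± 31.9 CPM in wild type (SD, n = 4 each), which gives -0.03 as log2 fold change with a standard error (SE) of 0.21. The 95% confidence interval of the fold, from 0.706 to 1.37, leaves room for a moderate change in either direction. The deposited counts are per gene, so the isoforms of the receptor with and without its alternatively spliced exon were not separated.

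Irs1 (chromosome 1, 82233105 to 82291439, minus strand) showed 61.9, 79.1, 102 and 58.6 CPM in the knockouts, against 65.6, 53.6, 48.1 and 55.0 CPM in the wild types. Knockout libraries 2 and 3 were above every wild-type library, while knockout libraries 1 and 4 were below wild-type library 1. The mean was 75.4 ± 19.9 CPM in knockout and 55.6 ± 7.29 CPM in wild type (SD, n = 4 each), a fold of 1.36 with a 95% interval from 1.02 to 1.81. The log2 fold change was 0.44 (SE 0.18, unadjusted p = 0.0398, adjusted p = 0.9999, edgeR). Without knockout library 3 it was 0.26 (unadjusted p = 0.112), and the unadjusted p was also above 0.05 without knockout library 2 and without wild-type libraries 2, 3 or 4 in turn. With both libraries that hold epithelial transcripts left out it was 0.35 (unadjusted p = 0.157).

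Irs2 (chromosome 8, 10986964 to 11008430, minus strand), the second substrate expressed widely in insulin-responsive tissues, measured 31.2, 24.0, 46.2 and 21.9 CPM in the knockouts, against 48.7, 32.5, 25.9 and 27.4 CPM in the wild types. As for Insr, knockout library 3 and wild-type library 1 were the highest, and the groups overlapped over most of their range. The log2 fold change was -0.13 (SE 0.28), and the interval of the fold ran from 0.592 to 1.42. Irs2 shares 162 exonic bases with 9530052E02Rik on the opposite strand, and reads there cannot be assigned with certainty because the strand setting of the counting is not given.

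The ratio of Irs1 to Irs2 counts within a library needs no scaling between libraries. It was 1.98, 3.29, 2.21 and 2.68 in knockout libraries 1 to 4 and 1.35, 1.65, 1.86 and 2.00 in wild-type libraries 1 to 4. Only knockout library 1 lay within the wild-type range, below wild-type library 4. The geometric mean was 2.49 in knockout and 1.70 in wild type, a difference of 0.56 on the log2 scale (two-sided exact permutation test, p = 0.0571, adjusted over 5 ratios p = 0.286, n = 4 each). The smallest p that 4 against 4 libraries allow is 0.0286. With each library left out in turn the difference lay between 0.42, without knockout library 2, and 0.67, without knockout library 1, the library that overlaps the wild types.

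**Figure D2:**
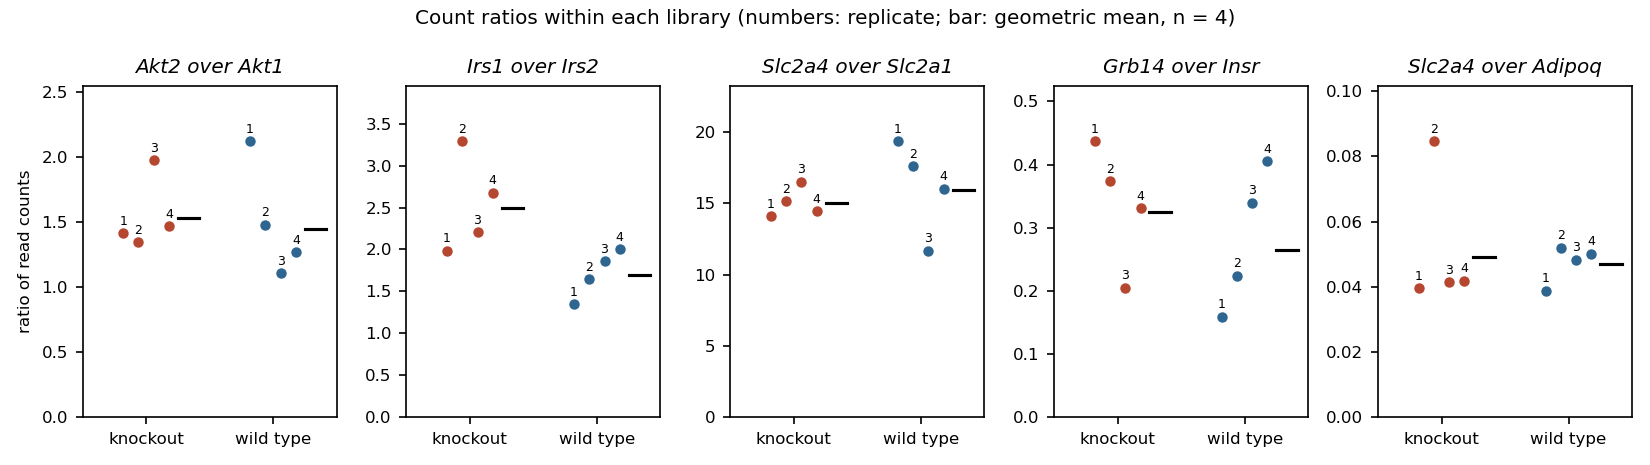
Ratios of read counts within each library for 5 gene pairs (vertical axes from 0); points are libraries with their replicate number, knockout left and wild type right, and bars give geometric means. The Irs1 over Irs2 ratio comes closest to separating the genotypes, with knockout library 1 at 1.98 and wild-type library 4 at 2.00.

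Grb14 encodes an adaptor that binds the activated insulin receptor and inhibits its kinase. Grb14 (chromosome 2, 64912482 to 65022766, minus strand) reached 55.0, 49.0, 43.8 and 42.5 CPM in the knockouts, against 31.4, 28.1, 45.98 and 61.4 CPM in the wild types. All knockout libraries lay inside the range of the wild-type libraries, which spread widely. The SD was 11.95% of the mean in knockout and 36.6% in wild type, and the log2 fold change was 0.19 (SE 0.24). The ratio of Grb14 to Insr counts was 0.206 to 0.437 in knockout and 0.159 to 0.406 in wild type, without a difference beyond the spread (exact permutation test p = 0.486, adjusted p = 0.914, n = 4 each). The log2 fold change of Grb14 was 0.44 without wild-type library 4 (unadjusted p = 0.0497), 0.04 without wild-type library 2, 0.0756 without wild-type library 1 and 0.11 without knockout library 1.

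Pik3r1 encodes p85 alpha and its shorter forms, regulatory subunits of phosphoinositide 3-kinase. Pik3r1 (chromosome 13, 101680762 to 101768217, minus strand) counted 227, 239.8, 289.8 and 206 CPM in the knockouts, against 194, 168, 188 and 308 CPM in the wild types. Wild-type library 4 was the highest of all, and the other wild-type libraries were below every knockout library. The log2 fold change was 0.16 (SE 0.20) with all libraries. It depended on which library was left out: it was 0.06 without knockout library 3 (unadjusted p = 0.777), 0.06 without wild-type library 2 (unadjusted p = 0.765) and 0.40 without wild-type library 4 (unadjusted p = 0.0268, adjusted p = 0.99997, edgeR). In that last comparison 1.66% of all tested genes had an unadjusted p under 0.05.

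Akt1 and Akt2 encode the kinases at the centre of the pathway, of which AKT2 is the isoform tied to glucose uptake in adipocytes. Akt1 (chromosome 12, 112653821 to 112674276, minus strand) had 125, 138, 127 and 132 CPM in the knockouts, against 115, 126, 135 and 131 CPM in the wild types. It varied least of the 10 genes, its highest library being 1.196-fold above its lowest. Its log2 fold change was 0.04 (SE 0.09), and the interval of the fold, from 0.899 to 1.18, was the narrowest of the 10.

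Akt2 (chromosome 7, 27591560 to 27639453, plus strand) showed 176, 185, 250.4 and 194 CPM in the knockouts, against 245, 186, 149 and 166 CPM in the wild types. Knockout library 3 and wild-type library 1 were again high, and the groups overlapped. The log2 fold change was 0.11 (SE 0.18), with a fold between 0.820 and 1.42. The ratio of Akt2 to Akt1 counts was 1.35 to 1.97 in knockout and 1.11 to 2.12 in wild type (exact permutation test p = 0.743, adjusted p = 0.914, n = 4 each), so the wild-type range enclosed the knockout range.

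Trib3 encodes a pseudokinase that can bind AKT and that is induced by ATF4 and CHOP, transcription factors of the stress response. Trib3 (chromosome 2, 152337425 to 152344060, minus strand) measured 10.6, 10.1, 14.2 and 10.7 CPM in the knockouts, against 10.9, 7.35, 13.2 and 15.2 CPM in the wild types. Both the lowest and the highest library were wild type, and the log2 fold change was -0.03 (SE 0.22). Zbtb43, Pck2 and Porcn followed it most closely across the 8 libraries once each genotype's mean was taken out, with Pearson r of 0.994, 0.979 and 0.979; these are the top 3 of 12908 genes searched, so the size of r follows from the search and has no test. Pck2, mitochondrial phosphoenolpyruvate carboxykinase and itself known as an ATF4 target, was at 29.5 to 45.9 CPM in knockout and 27.5 to 49.8 CPM in wild type.

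The C/EBP-ATF composite motif TGATGNAA, the kind of element through which ATF4 and CHOP act, or TTNCATCA on the other strand, lay in the RefSeq promoter windows of both genes, which span 250 bases before and 50 after the start site. It began 15 bases after the start site of Trib3 and 103 before that of Pck2, and 3.97% of all windows held it. Of the 15 genes searched with a window it was also in those of Akt2, Asns and Chac1. The 30 bases around each match, with the motif in capitals, come from chr2:152344028-152344057 on the minus strand for Trib3 and chr14:55540152-55540181 on the plus strand for Pck2, both GRCm38.p6.
Trib3: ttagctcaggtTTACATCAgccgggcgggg
Pck2: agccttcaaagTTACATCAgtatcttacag
The 8 capital letters are the same in both genes, but the search fixes every letter except the N. Atf4 itself was at 144 ± 16.5 CPM in knockout and 135 ± 21.6 CPM in wild type, and Ddit3, which encodes CHOP and shares 68 exonic bases with Mars, at 28.3 ± 6.42 CPM in knockout and 31.6 ± 9.58 CPM in wild type (SD, n = 4 each). The list of ATF4 and CHOP targets included Atf4 and Ddit3 themselves. Of its 19 tested genes, 10 were above 0 and 9 below, and none passed. In wild-type library 2, where Trib3 and Pck2 were lowest, Ddit3, Atf5, Psat1, Shmt2 and Cars of this list were at their highest. Atf4, Asns, Sesn2, Slc3a2 and Ddit4 were at their lowest there, and the rest of the list was at neither end. Those not named by role were named after their values were seen.

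Foxo1 encodes the transcription factor that AKT holds inactive. Foxo1 (chromosome 3, 52268337 to 52350109, plus strand) reached 153, 115, 173 and 193 CPM in the knockouts, against 192, 124, 162 and 170.2 CPM in the wild types. Library 2 was the lowest in each genotype. The means of 159 ± 32.9 CPM in knockout and 162 ± 28.1 CPM in wild type (SD, n = 4 each) differed by -0.03 on the log2 scale (SE 0.18).

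Slc2a4 encodes GLUT4, the transporter that insulin moves to the surface of fat and muscle cells. Slc2a4 (chromosome 11, 69942286 to 69948190, minus strand) counted 218, 299.6, 280.2 and 195 CPM in the knockouts, against 276, 242, 201 and 254 CPM in the wild types. The knockout libraries held both the highest and the lowest level. The mean was 248 ± 49.8 CPM in knockout and 243 ± 31.6 CPM in wild type (SD, n = 4 each), with a log2 fold change of 0.03 (SE 0.16) and a fold between 0.789 and 1.32. Leaving out both libraries with epithelial transcripts gave -0.15 (unadjusted p = 0.363).

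Slc2a4 reads were 14.1 to 16.5 times those of Slc2a1, the basal transporter GLUT1, in knockout and 11.7 to 19.3 times in wild type (exact permutation test p = 0.657, adjusted p = 0.914, n = 4 each). Relative to Adipoq, a transcript made by adipocytes, the Slc2a4 ratio was 0.0396, 0.0846, 0.0415 and 0.0419 in knockout libraries 1 to 4 and 0.0388 to 0.0520 in wild type (exact permutation test p = 0.914, adjusted p = 0.914, n = 4 each). Knockout library 2 had the highest Slc2a4 and the lowest Adipoq level of all libraries. The 3 genes that followed Slc2a4 most closely across the 8 libraries were Cul5, Dlst and Wdr67, with Pearson r of 0.993, 0.992 and 0.991 after each genotype's mean was taken out. As for Trib3, they are the top of 12908 genes searched, so the size of r follows from the search and has no test. Dlst, a subunit of the 2-oxoglutarate dehydrogenase complex, was at 271 ± 33.1 CPM in knockout and 251 ± 23.9 CPM in wild type (SD, n = 4 each).

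**Figure D3:**
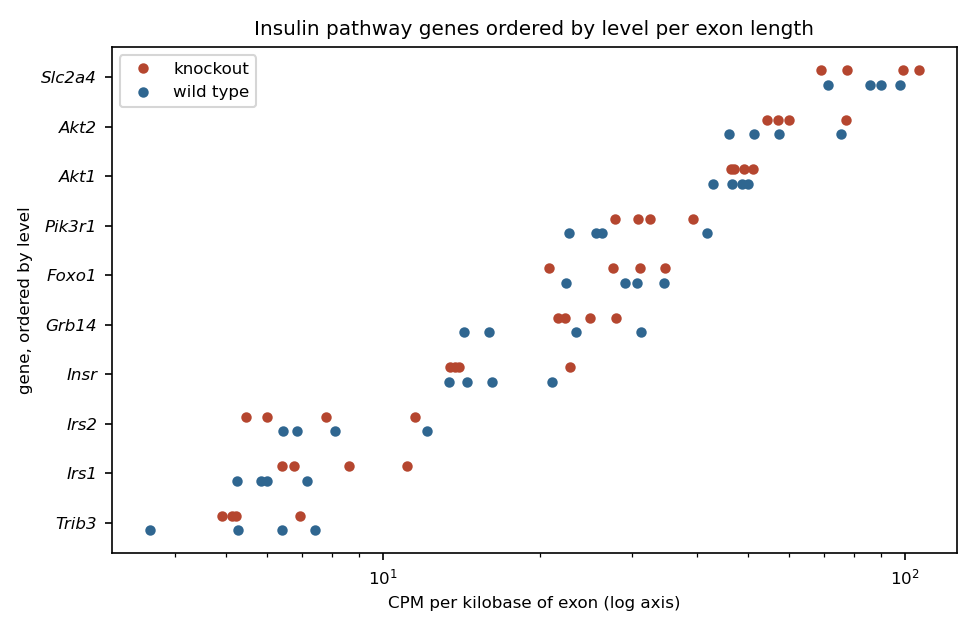
Level of each gene in each library as CPM per kilobase of exon (log axis), knockout points above wild-type points in each row. Slc2a4 leads with 69.0 to 106 CPM per kilobase and Trib3 is lowest with 3.59 to 7.42.

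Levels of different genes were compared per kilobase of merged exon in the deposited annotation. Slc2a4 led with 87.9 ± 17.6 CPM per kilobase in knockout and 86.1 ± 11.2 in wild type (SD, n = 4 each), and it exceeded Akt2, the next gene, in all 8 libraries. Akt2 was at 62.2 ± 10.3 CPM per kilobase in knockout and 57.6 ± 12.8 in wild type, above Akt1 in 7 of 8 libraries, although their ranges overlapped. Akt1, at 48.5 ± 2.18 CPM per kilobase in knockout and 47.1 ± 3.16 in wild type, lay above Pik3r1 in all libraries with no overlap of ranges.

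Pik3r1, Foxo1, Grb14 and Insr followed, with neighbours whose ranges overlapped. The mean level per kilobase of Pik3r1 was 32.6 in knockout and 29.1 in wild type, and that of Insr was 15.998 in knockout and 16.3 in wild type. A gap with no overlap separated Insr from Irs2 and Irs1. Irs2 had 7.68 CPM per kilobase in knockout and 8.38 in wild type, Irs1 had 8.23 in knockout and 6.06 in wild type, and Irs2 was above Irs1 in 6 of 8 libraries. Their order rests on the deposited gene models, and that of Irs2 leaves out the RefSeq start site. Trib3 was lowest, with 5.56 CPM per kilobase in knockout and 5.68 in wild type, and its range overlapped that of Irs1.

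The spread between mice of 1 genotype differed widely among the 10 genes. The SD ran from 4.49% to 35.6% of the mean in knockout and from 6.71% to 36.6% in wild type; its median over the 9203 tested genes above 10 CPM was 13.5% in knockout and 12.2% in wild type. Knockout library 3 held the highest Insr, Irs1 and Akt2 levels, and wild-type library 1 the highest Irs2 level. Wild-type library 4 held the highest Pik3r1, Grb14 and Trib3 levels, and wild-type library 2 the lowest Insr, Pik3r1, Grb14 and Trib3 levels. Knockout library 3 and wild-type library 1 also had the highest adipocyte marker sums, 57971 and 55403 CPM; the part of adipocyte content in these levels was not tested.

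**Figure D4:**
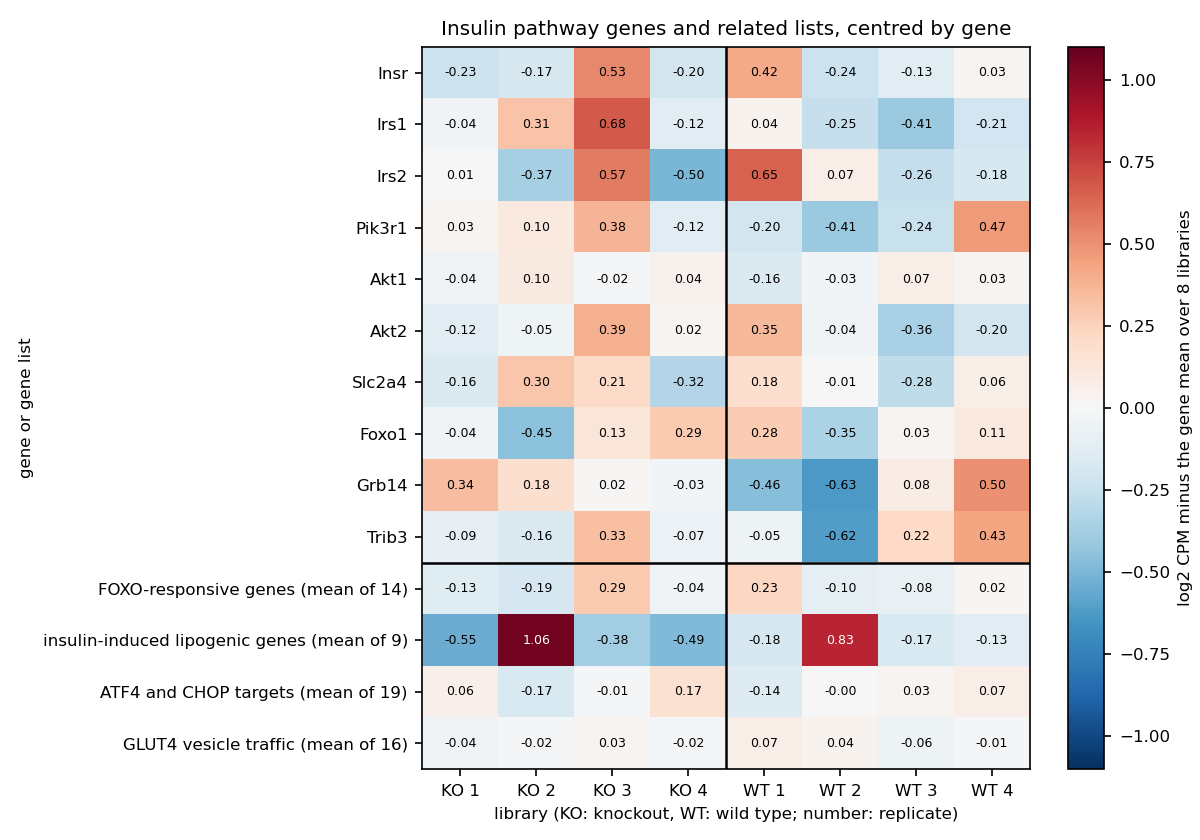
Log2 CPM of each gene minus its mean over the 8 libraries, with 4 gene lists below as the mean of their tested genes; columns are knockout (KO) and wild-type (WT) libraries and colours run from blue (below the mean) to red (above). Insr, Irs2 and Akt2 are red in KO 3 and WT 1, and the lipogenic list is at 1.06 in KO 2 and 0.83 in WT 2.

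Among 55 relations across the 8 libraries, between pairs of the 10 genes and between each gene and the adipocyte marker sum, 0 passed Benjamini-Hochberg adjustment and 8 had an unadjusted permutation p under 0.05. Insr and Irs2 had a Pearson r of 0.83 (exact permutation p = 0.0227, adjusted p = 0.251) and a Spearman rho of 0.38 (exact permutation p = 0.360, adjusted p = 0.683, n = 8). Without knockout library 3 and wild-type library 1, the libraries farthest from the median of Insr, r was -0.16, so this relation rests on those libraries. Irs2 and Akt1 had an r of -0.83 (exact permutation p = 0.00665, adjusted p = 0.251) and a rho of -0.83 (exact permutation p = 0.0154, adjusted p = 0.581, n = 8), and r stayed at -0.81 without the same libraries (exact permutation p = 0.0569, n = 6). Irs1 and Akt2 had an r of 0.74 (exact permutation p = 0.0365, adjusted p = 0.251) and a rho of 0.67 (exact permutation p = 0.0831, adjusted p = 0.581, n = 8). Their r was 0.83 without knockout libraries 2 and 3, the libraries farthest from the median of Irs1. Wild-type library 1, which was high for Akt2, stayed in, and leaving it out with knockout library 3 was not tested for this pair. Insr and the adipocyte marker sum had an r of 0.79 (exact permutation p = 0.0134, adjusted p = 0.251) and a rho of 0.67 (exact permutation p = 0.0831, adjusted p = 0.581, n = 8), and an r of 0.48 without knockout library 3 and wild-type library 1 (exact permutation p = 0.361, n = 6).

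Of 121 other genes in 9 lists of the pathway and its outputs, 119 were tested and none passed in edgeR; 3 had an unadjusted p under 0.05, all lower in knockout, against 2.23% of all tested genes. The median log2 fold change of the 119 was 0.01, equal to that of all tested genes at this rounding. With DESeq2, which also called none, 5 of 116 had an unadjusted p under 0.05, against 2.5% of all genes with a p in DESeq2. Without both libraries that hold epithelial transcripts, 12 of the 119 had an unadjusted p under 0.05 in edgeR, against 5.58% of all tested genes, and none passed.

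In the list of receptor and adaptor genes, which also held Ptpn11, Cbl and Cblb, 6 of 11 tested were above 0 and 5 below. In the list of inhibitors, which also held Trib1 and Trib2, 7 of 10 were above 0. Irs3, a substrate gene of mouse adipocytes, had 68.7, 69.8, 76.0 and 67.6 CPM in the knockouts, against 100.3, 105, 58.5 and 50.3 CPM in the wild types. The knockout libraries were close together and the wild-type libraries fell on both sides of them. Igf1r, the receptor for insulin-like growth factor 1, was at 18.3 ± 2.74 CPM in knockout and 18.98 ± 2.23 CPM in wild type (SD, n = 4 each). The inhibitory adaptor Grb10 was at 84.2 ± 5.84 and the phosphatase Ptpn1, which dephosphorylates the receptor, at 59.8 ± 7.96 CPM in knockout, against 87.3 ± 3.16 and 54.0 ± 6.98 CPM in wild type. Socs3, which is induced by cytokines and targets the substrates, was at 4.98 to 7.59 CPM in knockout and 5.80 to 8.79 CPM in wild type.

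Of 16 genes of the phosphoinositide 3-kinase and AKT step, 8 were above 0 and 8 below. Pik3ca, the catalytic subunit, was at 95.8 ± 5.75 CPM in knockout and 99.8 ± 8.77 CPM in wild type, or -0.06 on the log2 scale (SE 0.09). Pdpk1, the kinase that activates AKT, was at 86.8 ± 17.9 CPM in knockout and 95.7 ± 18.7 CPM in wild type (SD, n = 4 each). Among 15 AKT substrates and effectors, 3 were above 0 and 12 below, with a median of -0.08 and a smallest unadjusted p of 0.141. Tbc1d4, the AKT substrate AS160 that restrains GLUT4 vesicles, had a log2 fold change of -0.15 (SE 0.18), and Pde3b, the phosphodiesterase through which insulin restrains lipolysis, -0.19 (SE 0.22).

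Of 10 tested glucose transporters and hexokinases, 6 were above 0 and 4 below, and this list held 2 of the 3 genes with an unadjusted p under 0.05. These were Slc2a12 and Slc2a13, named after their values were seen. Slc2a12, which encodes the transporter GLUT12, showed 7.42, 4.01, 5.37 and 5.03 CPM in the knockouts, against 6.21, 5.94, 13.4 and 18.9 CPM in the wild types (log2 fold change -1.02, SE 0.39, unadjusted p = 0.0290, adjusted p = 0.9999). Slc2a13, a proton-coupled myo-inositol transporter, measured 6.17, 11.9, 8.65 and 5.87 CPM in the knockouts, against 10.7, 10.7, 15.4 and 21.8 CPM in the wild types (log2 fold change -0.85, SE 0.30, unadjusted p = 0.0214, adjusted p = 0.9999). Wild-type libraries 3 and 4 were the highest for both genes. The largest log2 fold change of this list was that of the fructose transporter gene Slc2a5 at 2.90 (SE 1.37), also named after its values were seen. It rests on knockout library 2 at 6.94 CPM, the library with the most Foxj1, against 0.0209 to 0.370 CPM in the other 7. Hk2, the insulin-responsive hexokinase, was at 120.1 ± 14.4 CPM in knockout and 135 ± 11.6 CPM in wild type, and Slc2a1 at 16.4 ± 2.66 CPM in knockout and 15.3 ± 1.56 CPM in wild type (SD, n = 4 each).

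Of 16 tested genes of GLUT4 vesicle traffic, 9 were above 0 and 7 below, all between -0.24 and 0.13 on the log2 scale. Rab10, the GTPase that carries GLUT4 vesicles to the surface of adipocytes, was at 159.96 ± 7.05 CPM in knockout and 175 ± 11.2 CPM in wild type, or -0.13 on the log2 scale (SE 0.09). It shares 15 exonic bases with 1700012B15Rik. Lnpep, an aminopeptidase that travels in the same vesicles, was at 41.7 ± 10.7 CPM in knockout and 49.4 ± 17.0 CPM in wild type (SD, n = 4 each).

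**Figure D5:**
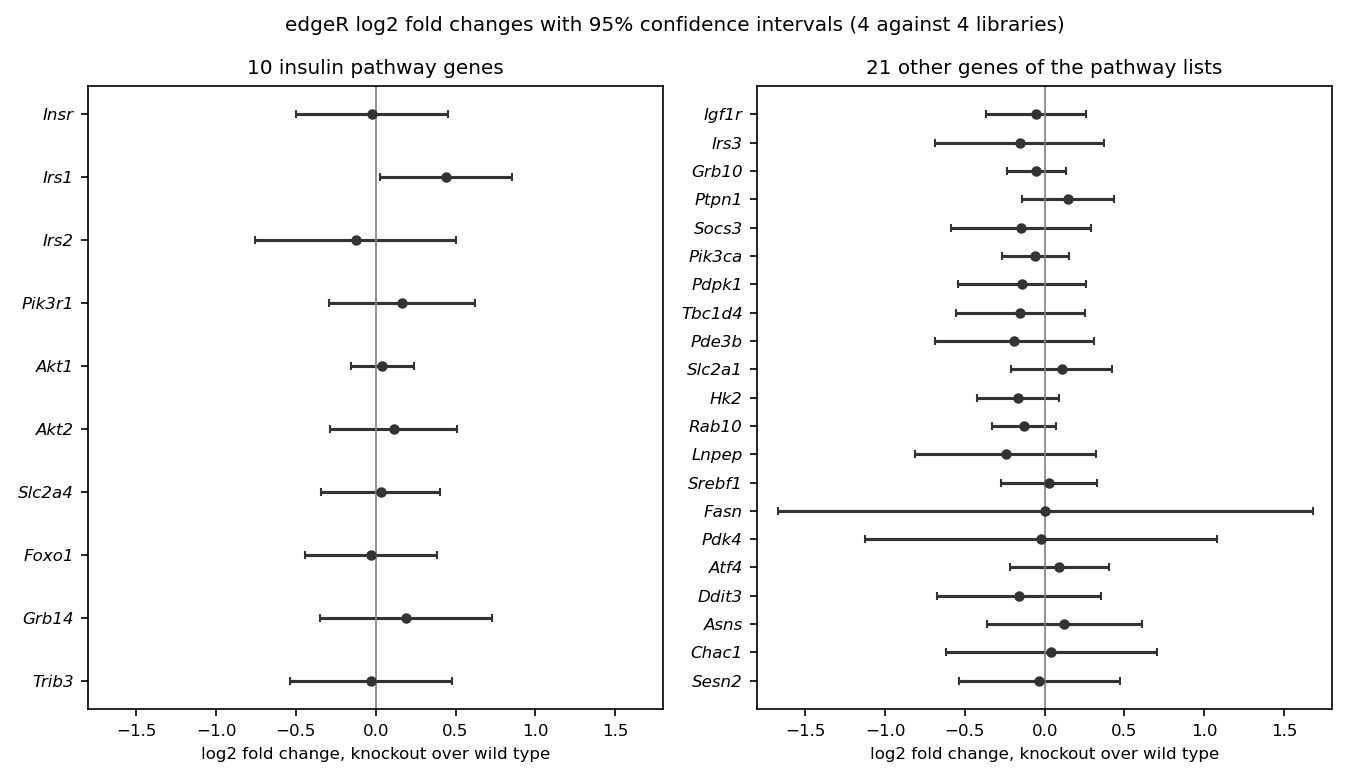
Log2 fold change of knockout over wild type with its 95% confidence interval (edgeR, 4 against 4 libraries) for the 10 genes on the left and 21 other pathway genes on the right. The interval of Irs1, at 0.44, lies just above 0, and that of Fasn is the widest shown.

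Fasn, fatty acid synthase and an output of insulin signalling in fat, reached 1403, 9532, 1555 and 1661 CPM in the knockouts, against 1771, 7603, 2382 and 2349.9 CPM in the wild types. Library 2 was far above the rest in each genotype, and the log2 fold change was 0.00 (SE 0.74). Acly, ATP citrate lyase, named after its values were seen, showed the same 2 libraries on top, at 1508 CPM in knockout and 1321 CPM in wild type, against 182 to 278 CPM in the other 6. Srebf1, the gene of the transcription factor SREBP1, which shares 107 exonic bases with Rai1, was at 407 ± 58.1 CPM in knockout and 399 ± 36.6 CPM in wild type (SD, n = 4 each) and was highest in knockout library 2 at 463 CPM and wild-type library 1 at 431 CPM. Of 9 tested lipogenic genes, 5 were above 0 and 4 below, and none passed. Acaca, Mlxipl, Elovl6 and Me1 of this list were also highest in library 2 of each genotype. Scd1 and Pnpla3 were highest of the knockouts in library 2 but not of the wild types. These genes were named after their values were seen.

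In library 2 of each genotype Pdk4, a pyruvate dehydrogenase kinase that FOXO proteins induce, was at its lowest. Pdk4 counted 110, 31.1, 149 and 67.5 CPM in the knockouts, against 149, 44.2, 87.7 and 83.2 CPM in the wild types. Foxo1 was lowest in the same libraries of each genotype, as given above. On the FOXO list, Cdkn1b, Sesn1 and Txnip were also lowest in library 2 of each genotype, while Gadd45a was highest there. The rest of the tested genes on that list were at neither end in library 2 of both genotypes. These genes were named after their values were seen. Pck1, cytosolic phosphoenolpyruvate carboxykinase and likewise on the FOXO list, was highest in knockout library 3 at 6050.5 CPM and wild-type library 1 at 5081 CPM, the libraries with the most Insr and Irs2; it was at 1841 to 2671 CPM in the other 6 and was named after its values were seen. Of 14 tested FOXO-responsive genes 8 were above 0 and 6 below between genotypes, and Bcl6, named after its values were seen, had an unadjusted p of 0.0497 and a log2 difference of -0.47 (SE 0.21, adjusted p = 0.9999). Feeding state, time of collection and cage are not in the labels, and their part in these between-mouse differences was not tested.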

How the data were processed

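RNA-seq libraries of 4 knockout and 4 wild-type mice were grouped by the labels. The authors deposited whole-number read counts per gene symbol for each mouse. Per the submitters' processing notes, the tools were STAR 2.4.0g1, FastQC 0.11.2, Cufflinks, featureCounts and edgeR, with mm10 as the genome; the sources used here give neither their roles nor the strand setting. Exon positions (other: base-pair coordinates, deposited by the authors as a merged annotation) gave lengths and overlaps. Labels do not say whether mice shared litters or cages, so it is not known whether the mice are independent. The p-values for genotype set the difference against the spread between mice of the same genotype.

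Counts were filtered with filterByExpr, scaled by TMM (factors 0.966 to 1.05) and tested with edgeR 4.0.16 in R 4.3.3 by the robust quasi-likelihood F test over 14493 genes, with Benjamini-Hochberg adjustment at 0.05 and no covariate. The SE is the one the F statistic implies. The common biological coefficient of variation was 0.301, which at these totals exceeds counting error for all 10 genes. Libraries of 1 genotype always differed by more than sampling noise (chi-square per degree of freedom at least 63). Ratios used exact permutation tests over 70 arrangements. DESeq2 1.42.0 and other settings were alternatives. Genes besides the 10 were named by role whatever their values, or as stated. Members and lists were chosen with earlier results of these data known. Promoters are RefSeq's for GRCm38.p6, with an entry for 8 of the 10 genes. The targeted gene and 1 of the genes named by role are not reported here.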

Additional observations from a re-analysis of the deposited data

Results flagged for a closer look

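Among 30 groups of 4 libraries examined, 10 genes and 5 ratios in each genotype, 2 had an isolated library, and about 1.5 would by chance. Insr was at 213 CPM in knockout library 3, against 126 to 131 CPM in the other knockout libraries. The ratio of Slc2a4 to Adipoq counts was 0.0846 in knockout library 2, against 0.0396 to 0.0419 in the other knockout libraries. Knockout library 2 is also the library with the most Foxj1, at 26.1 CPM, whose part in the ratio was not tested.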

How the results depend on the processing

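With median-ratio factors, total counts, no low-count filter, a filter of 1 CPM in 4 libraries, DESeq2, each library left out, and both libraries with epithelial genes left out, 0 of the 10 genes and 0 of the other pathway genes passed. Over all tested genes, DESeq2 called 17 against 2 in edgeR, and 0 were called with total counts, without the filter, with the block or with any library left out. Of the 119 other pathway genes, 12 had an unadjusted p under 0.05 without both epithelial libraries, where 5.58% of all tested genes did, against 3 and 2.23% with all libraries. The log2 fold changes of Irs1, Pik3r1 and Grb14 kept their direction in all 15 alternatives. Leaving out each library in turn gave log2 fold changes from -0.25 to 0.12 for Insr, -0.39 to 0.11 for Irs2, -0.0009 to 0.072 for Akt1, -0.0106 to 0.27 for Akt2, -0.0759 to 0.12 for Slc2a4, -0.15 to 0.0918 for Foxo1, -0.20 to 0.13 for Trib3, -0.12 to 0.0292 for Igf1r, -0.31 to 0.0161 for Irs3, -0.43 to 0.0278 for Lnpep, -0.0444 to 0.0944 for Srebf1, -1.20 to 0.70 for Fasn, -0.39 to 0.32 for Pdk4, -0.28 to 0.0768 for Ddit3, -0.28 to 0.23 for Chac1 and -0.15 to 0.21 for Sesn2. The log2 ratio differences then ran from -0.0495 to 0.26 for Akt2 over Akt1, 0.42 to 0.67 for Irs1 over Irs2, -0.23 to 0.0129 for Slc2a4 over Slc2a1 and -0.20 to 0.17 for Slc2a4 over Adipoq. Without both libraries with epithelial genes the direction turned for Slc2a4 (-0.15), Foxo1 (0.10), Trib3 (0.0885), Socs3 (0.0715), Srebf1 (-0.10), Fasn (-1.34), Pdk4 (0.25), Asns (-0.0323), Sesn2 (0.0154) and Slc2a4 over Adipoq (-0.18). With total counts it turned for Insr (0.0039), Foxo1 (0.0053) and Sesn2 (0.0022), and with no low-count filter for Fasn (-0.0131). The cause of these turns was not tested.

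The deviations of libraries with the same replicate number had correlations of 0.06, 0.13, -0.27 and -0.0068 for numbers 1 to 4. Pair 2 exceeded 0.1 and the other 3 did not, so the number was not used as a pairing. With the replicate block 0 of the 10 genes and 0 of the other pathway genes passed, the Irs1 over Irs2 difference was 0.56 (higher in knockout in 4 of 4 pairs, exact sign-flip p = 0.125, the smallest that 4 pairs allow), and the direction turned for Trib3 (0.0064), Fasn (-0.28) and Chac1 (-0.0326).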
